A study of Mus musculus with 24 samples.

Results

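The genes described here are those that mark Kupffer cells, the resident macrophages of the liver, and macrophages and monocytes in general, followed in whole liver across 4 diets. The list was given by name and holds 38 genes. Of these, 37 were among the 13686 genes of the count table, all 37 were among the 11971 genes expressed highly enough to be tested, and Gpnmb was not analysed here. The animals were male wild-type C57BL/6 mice fed for 6 weeks on a diet enriched in cottonseed oil (CSO, 6 libraries), in olive oil (OO, 6 libraries) or in safflower oil (SFO, 5 libraries), or on standard chow (Chow, 6 libraries). No genotype or agent other than diet separated the groups, and a further SFO sample, which the submitters described as an outlier, was not analysed here. Total liver RNA was read by QuantSeq, a method that primes on the poly(A) tail and counts tags near the 3′ end of each transcript. The unit of level is CPM, a gene's counts relative to its library's total after edgeR's TMM scaling, and because a transcript gives tags mainly from its end they were not divided by gene length.

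Kupffer cells line the liver sinusoids, where they take up particles, dying cells, modified lipoproteins and old red cells from portal blood. They are seeded before birth and renew themselves in place under the growth factor CSF1, and when they are lost, monocytes recruited from blood can fill the niche. They carry lectins and scavenger receptors on their surface, present peptides on MHC class II, and signal through immunoreceptor adaptors. In fatty or injured liver a further state, the lipid-associated macrophage, is known for TREM2, galectin-3 and GPNMB. Because whole liver was sequenced, fewer macrophages and less macrophage RNA per cell cannot be told apart in any value below.

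The promoters of the MHC class II chain genes H2-Aa and H2-Eb1 and of Mpeg1 are shown because class II genes form a group known for shared promoter elements, and because Mpeg1 was the gene of the list that passed the test. They are RefSeq sequences of the mouse build GRCm38.p6, 5′ to 3′ on the gene's strand, from 250 bases before to 50 bases after the start. The capitals mark GATTGG, the inverted CCAAT core of the class II Y box, or its reverse complement CCAATC. H2-Aa lies at chr17:34287774-34288073 on the minus strand, H2-Eb1 at chr17:34305617-34305916 on the plus strand, and Mpeg1 at chr19:12460520-12460819 on the plus strand.
H2-Aa: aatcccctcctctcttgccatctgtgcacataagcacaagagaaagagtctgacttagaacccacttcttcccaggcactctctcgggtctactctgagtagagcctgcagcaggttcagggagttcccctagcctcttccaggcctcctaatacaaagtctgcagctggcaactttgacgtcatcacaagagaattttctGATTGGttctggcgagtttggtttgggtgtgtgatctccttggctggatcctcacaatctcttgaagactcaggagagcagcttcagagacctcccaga
H2-Eb1: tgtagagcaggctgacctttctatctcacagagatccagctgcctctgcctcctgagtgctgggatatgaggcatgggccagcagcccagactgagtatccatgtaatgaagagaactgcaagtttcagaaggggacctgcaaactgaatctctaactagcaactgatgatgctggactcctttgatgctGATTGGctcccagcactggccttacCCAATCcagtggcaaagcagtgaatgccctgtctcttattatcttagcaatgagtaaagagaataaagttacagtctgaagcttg
Mpeg1: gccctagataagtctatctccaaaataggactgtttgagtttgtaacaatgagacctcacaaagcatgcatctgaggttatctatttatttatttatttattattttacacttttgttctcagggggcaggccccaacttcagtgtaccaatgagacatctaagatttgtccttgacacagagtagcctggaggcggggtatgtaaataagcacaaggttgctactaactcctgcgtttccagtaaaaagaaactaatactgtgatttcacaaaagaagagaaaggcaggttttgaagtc
The motif stood once in the H2-Aa promoter, starting 49 bases before the start, and on both strands in the H2-Eb1 promoter, at 60 and 35 bases before it. The Mpeg1 window held none. Over all 32851 promoters of the same length, 16.1% held this motif on either strand, against 7 of the 34 promoter entries of the listed genes (20.6%). The ETS core GAGGAA, a motif of the factor family that includes PU.1, was in none of the 3 windows, in 12 of the 34 entries of the listed genes (35.3%) and in 28.3% of all promoters. Promoter entries were found for 29 of the 38 genes, and the class II beta chain gene H2-Ab1 had none. A match or its lack describes these letters only.

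Library depth ran from 5428649 counts (SFO 6) to 14930305 counts (Chow 4). The labels name separate samples of each diet but no animals, so the spread behind every p-value may be partly technical. Hepatocyte genes dominated every library, with Alb at a mean of 101900 CPM in CSO, 119649 CPM in OO, 99197 CPM in SFO and 101120 CPM in Chow. Of the defining Kupffer cell markers, Clec4f and Cd5l had counts in every library of every diet, as had Vsig4 and Adgre1. Timd4 was at 0 in 4 libraries and Marco in 1. Libraries CSO 1, Chow 3, Chow 4 and Chow 5 stood apart by skeletal muscle transcripts, with Acta1, the skeletal muscle actin, at 314, 461, 887 and 186 CPM, so calls are given below with and without them. Leaving them out also makes the Chow group smaller by Chow 3, Chow 4 and Chow 5. The part of this smaller group in any lost call was not tested.

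The macrophage genes together took a small share of each liver library, between 305 and 690 CPM. Their summed level was 314 to 602 CPM in CSO (mean 501 ± 105, SD, n = 6), 305 to 690 CPM in OO (493 ± 148, n = 6), 428 to 665 CPM in SFO (548 ± 95.7, n = 5) and 424 to 681 CPM in Chow (534 ± 90.3, n = 6). All 4 ranges overlapped. The general macrophage and monocyte genes summed to a mean of 129 ± 26 CPM in CSO, 158 ± 76.8 CPM in OO and 119 ± 20.4 CPM in Chow, so the spread between OO libraries was wider than in those diets.

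**Figure D1:**
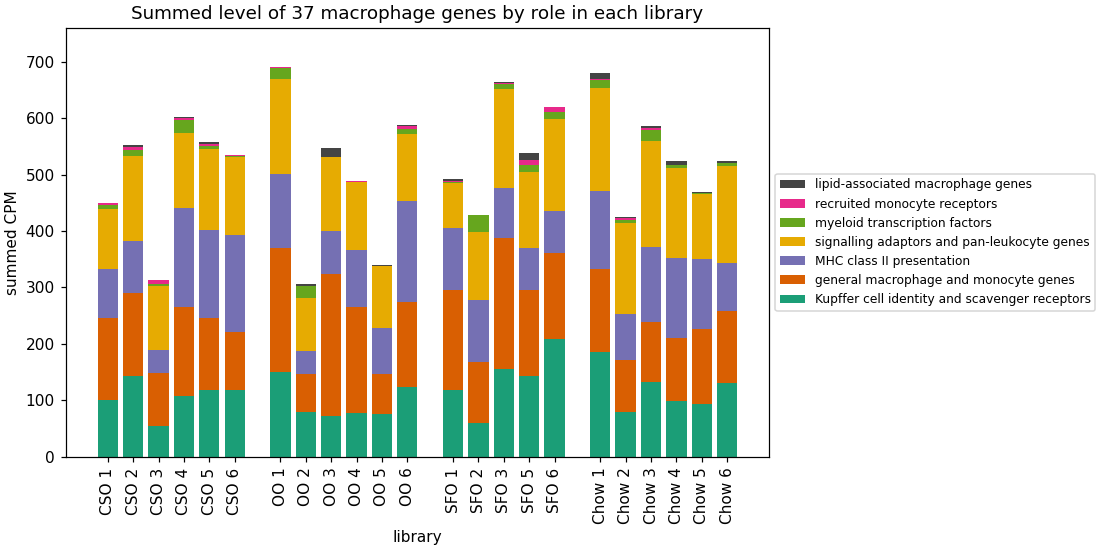
Summed CPM of the 37 genes in each of the 23 libraries, stacked by role, with the oil diets left of Chow. The bars lie between 305 and 690 CPM and the diets overlap; 4 roles make up most of every bar.

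Between diets, 1 of the 37 genes passed the test, Mpeg1, which was higher in SFO than in Chow. The test was edgeR's robust quasi-likelihood F test with all 4 diets in one fit, adjusted by Benjamini-Hochberg over all 11971 genes, with a threshold of 0.05. In CSO against Chow 0 of 37 were called, where 0.409% of all genes were, and 2 had an unadjusted p under 0.05, as had 5.32% of all genes. In OO against Chow 0 of 37 were called, where 2.64% of all genes were, and 4 had an unadjusted p under 0.05, as had 16.1% of all genes. In SFO against Chow 1 of 37 was called, where 0.835% of all genes were in either direction and 0.493% were higher, and 2 had an unadjusted p under 0.05, as had 7.74% of all genes. The calls and the unadjusted counts of the list were near or below these backgrounds. These 3 comparisons share the Chow libraries, and their values are given side by side.

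DESeq2's Wald test called 0 genes of the list in CSO against Chow, where it called 0.927% of all genes. It called 2 in OO against Chow (Mpeg1 and Ccr2), where it called 5.73% of all genes, and 1 in SFO against Chow, where it called 1.56%. Limma voom with quality weights called 0, 0 and 1 in the same comparisons, where it called 1.8%, 1.04% and 1.24% of all genes. The median log2 fold change of the list was -0.14 in CSO against Chow, where that of all genes was -0.02. It was -0.47 in OO, where all genes had 0.07, and 0.20 in SFO, where all genes had 0.01. The CSO and SFO medians had no stable sign: that of CSO was 0.08 with voom, and that of SFO was -0.21 without SFO 5, -0.01 without Chow 3 and -0.08 with a replicate block. Of the 37 genes, 15 had a positive value in CSO, 14 in OO and 21 in SFO.

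The genes of the list were at low levels and varied widely between libraries. The median level over the list was 6.35 CPM, against 17.7 CPM over all tested genes, and the median biological coefficient of variation was 1.03, against 0.610. The median standard error of the log2 fold change was 0.93 in CSO against Chow, where that of all genes was 0.52. Of the 37 genes, 19 (51.4%) had a count in every library, against 73.7% of all tested genes. Lcp1 varied 2.66-fold between its lowest and highest library over all diets, Mpeg1 6.19-fold and H2-Aa 636-fold.

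**Figure D2:**
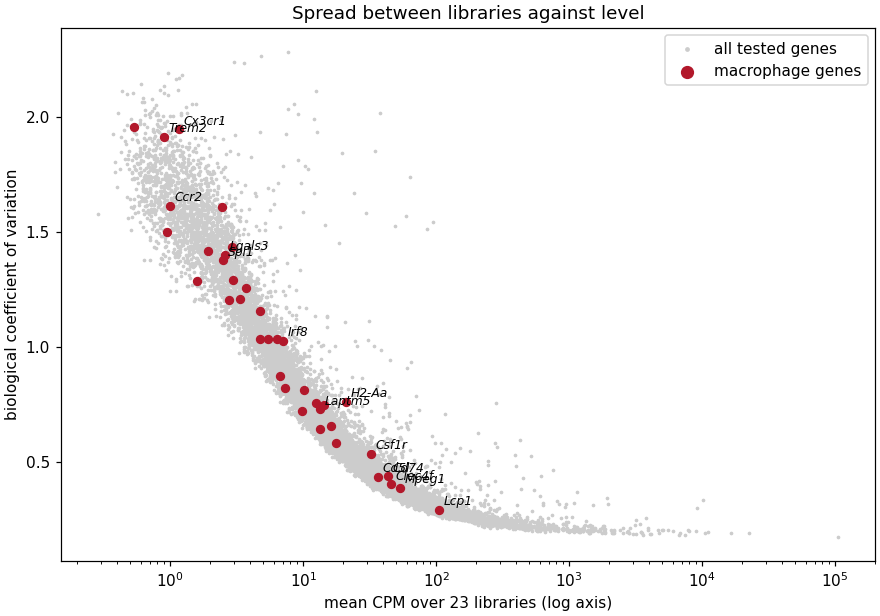
Biological coefficient of variation (y axis) against mean CPM over the 23 libraries (log x axis) for all tested genes (grey) and the 37 macrophage genes (red). The macrophage genes follow the band of all genes, with 22 of 37 above edgeR's trend, and most sit at its steep low-count end.

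Genes without a count were many in the OO libraries, in the list and among all genes. Between 6 and 9 of the 37 genes had no count in an OO library, against 0 to 2 in CSO, 0 to 8 in SFO and 2 to 6 in Chow. Over all tested genes 5.73% to 13.3% had no count in an OO library, against 3.16% to 4.28% in a Chow library. The mean log2 CPM over the list was 1.52 ± 0.39 in OO, 2.32 ± 0.36 in CSO, 2.23 ± 0.56 in SFO and 2.30 ± 0.36 in Chow (SD over libraries). The part of these zeros in the OO values below was not tested.

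Mpeg1 encodes perforin-2, a pore-forming protein of macrophages that acts on engulfed bacteria. It lies on chromosome 19, and no annotated gene overlaps it. Here and below, levels by library are the lowest, the median and the highest for CSO, OO and Chow, and all 5 values for SFO in the order of their numbers. The level of Mpeg1 was 43.0, 52.3 and 65.4 CPM in CSO and 19.4, 65.5 and 88.9 CPM in OO. The 5 SFO libraries had 112, 34.7, 98.3, 64.8 and 76.8 CPM, against 18.1, 31.6 and 34.7 CPM in Chow. Every CSO library lay above every Chow library, the lowest SFO library lay just above the highest Chow library, and 2 OO libraries lay within the Chow range while the others lay above it.

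Mpeg1 averaged 77.3 ± 30.0 CPM in SFO and 29.2 ± 6.25 CPM in Chow, a log2 fold change of 1.41 ± 0.32 (SE; 95% interval 0.75 to 2.06; adjusted p = 0.0150, edgeR). In CSO it averaged 52.8 ± 8.46 CPM, and the log2 fold change against Chow was 0.86 ± 0.31 (0.23 to 1.48; adjusted p = 0.481). In OO it averaged 57.2 ± 28.2 CPM, with 0.97 ± 0.31 (0.35 to 1.60; adjusted p = 0.0729). Mpeg1 was also the only gene of the list whose libraries did not overlap between 2 diets. It lay wholly higher in CSO than in Chow, where 0.86% of all genes did and 0.576% lay wholly lower, and wholly higher in SFO than in Chow, where 0.677% did and 0.911% lay wholly lower. No gene of the list did so in OO against Chow, where 0.977% of all genes lay wholly higher and 0.777% lower, or in CSO against OO, where 0.802% lay higher and 0.635% lower. None did in CSO against SFO, where 1.17% lay higher and 0.526% lower, or in SFO against OO, where 0.535% lay higher and 0.576% lower. For Mpeg1 the log2 fold change between oils had intervals that held 0, with 0.44 (-0.21 to 1.08) for SFO against OO, -0.55 (-1.20 to 0.10) for CSO against SFO and -0.11 (-0.73 to 0.50) for CSO against OO.

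The call for Mpeg1 rests on single libraries of both diets. Without SFO 1 the log2 fold change in SFO against Chow was 1.24 (adjusted p = 0.0955), without SFO 3 it was 1.31 (adjusted p = 0.0617) and without Chow 4 it was 1.31 (adjusted p = 0.0575). Without the 4 libraries that carried muscle transcripts it was 1.27 ± 0.43 (adjusted p = 0.513), and no gene of the list was called in any comparison. Over all genes that fit called 14 in CSO, 26 in OO and 34 in SFO against Chow, where all libraries gave 49, 316 and 100. In the authors' deposited table, with its sign turned to oil over Chow, Mpeg1 had 1.42 in SFO (adjusted p = 0.00254). The authors' deposited table gave 0.97 in OO (adjusted p = 0.0443), and the authors' deposited table for CSO gave 0.85 (adjusted p = 0.203).

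**Figure D3:**
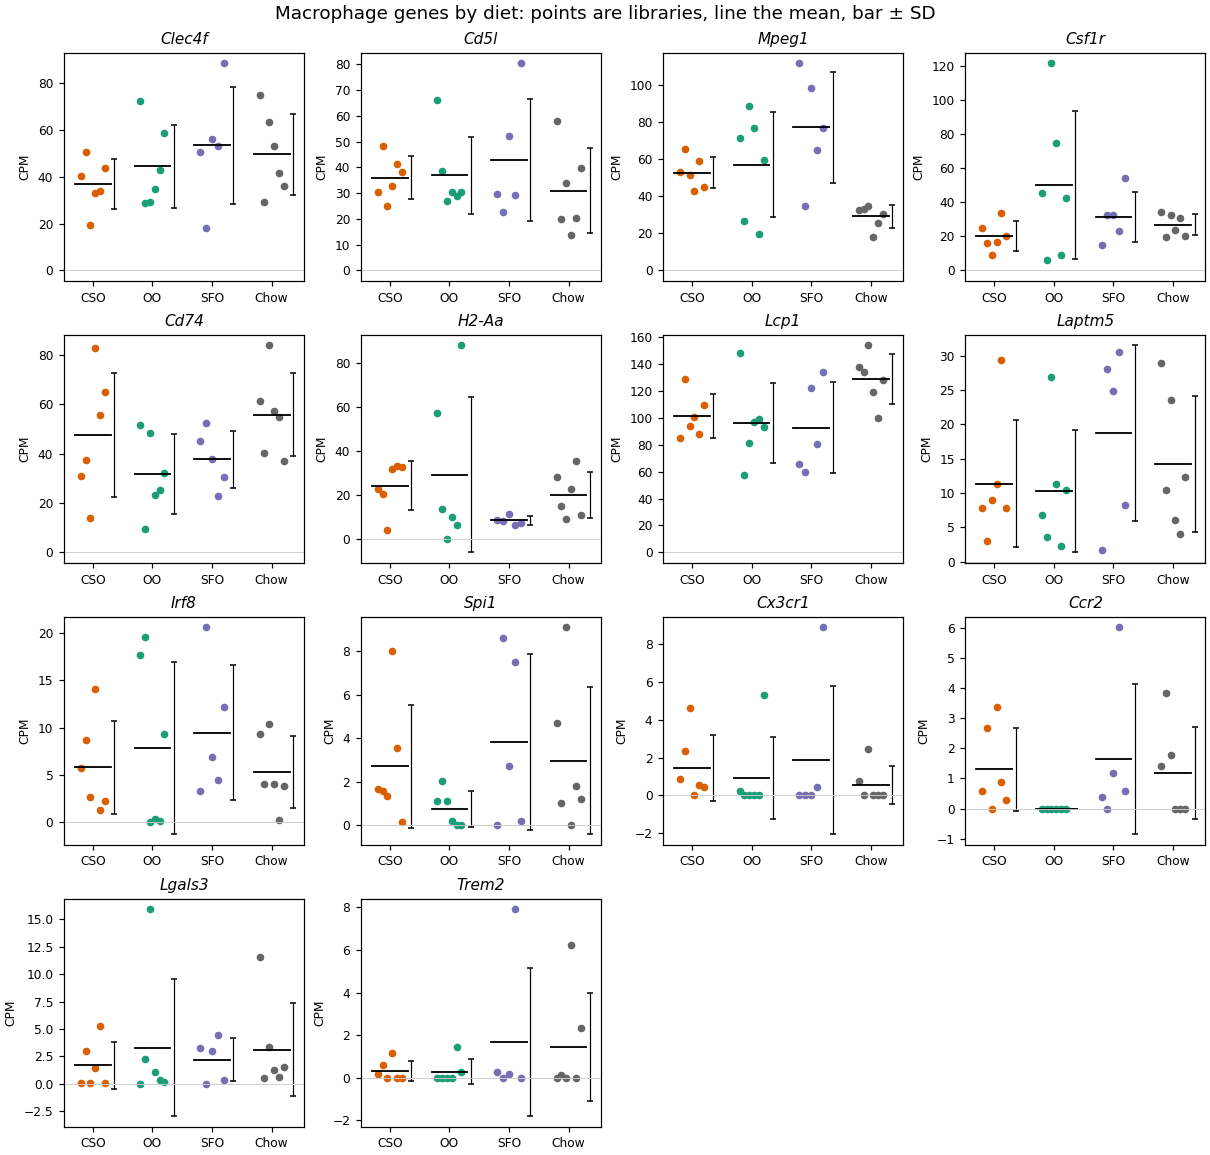
CPM per library (points), mean (line) and SD (bar) by diet for the called gene Mpeg1 and the 2 genes with the highest mean CPM in each role. Mpeg1 is the panel in which the oil diets sit mostly above Chow, with Chow at 18.1 to 34.7 CPM; an SD bar that reaches below 0 reflects spread, not a measured level.

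Among the genes of Kupffer cell identity, the lectin Clec4f, known in mice as a marker of Kupffer cells alone, had overlapping levels in all diets. Its level was 19.5, 37 and 50.5 CPM in CSO and 29.0, 38.7 and 72.3 CPM in OO. SFO libraries read 50.6, 18.3, 56.3, 53.3 and 88.5 CPM, against 29.2, 47.4 and 74.8 CPM in Chow. The 4 ranges overlapped, and SFO held both the lowest and the highest library. The log2 fold change against Chow was -0.43 (95% interval -1.08 to 0.22) in CSO, -0.16 (-0.81 to 0.49) in OO and 0.10 (-0.58 to 0.78) in SFO.

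Cd5l, a secreted protein of tissue macrophages also called AIM, was at 24.9, 35.5 and 48.2 CPM in CSO and at 27.0, 30.3 and 66 CPM in OO. Levels in SFO were 29.8, 22.7, 52.0, 29.3 and 80.4 CPM, against 13.8, 27.2 and 58.0 CPM in Chow. OO 1, SFO 3 and SFO 6 were the high oil libraries, and the ranges of all diets overlapped. The log2 fold changes against Chow were 0.22 (-0.49 to 0.93) in CSO, 0.25 (-0.46 to 0.96) in OO and 0.47 (-0.27 to 1.21) in SFO.

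The scavenger receptors were scarcer. Msr1, which binds modified lipoproteins, averaged 5.71 CPM in CSO, 2.42 CPM in OO, 11.6 CPM in SFO and 8.02 CPM in Chow. Its log2 fold change in OO against Chow was -1.73 ± 0.80 (unadjusted p = 0.0364, adjusted p = 0.268, edgeR), and the OO range of 0.112 to 7.93 CPM overlapped the Chow range of 2.16 to 11.7 CPM. Cd163, the receptor for haemoglobin bound to haptoglobin, averaged 4.69 CPM in CSO, 1.91 CPM in OO, 5.37 CPM in SFO and 7.07 CPM in Chow, with -1.88 in OO against Chow (adjusted p = 0.340). Folr2, a folate receptor of resident macrophages, averaged 2.57 CPM in CSO, 0.571 CPM in OO, 5.36 CPM in SFO and 2.92 CPM in Chow, with -2.33 in OO against Chow (adjusted p = 0.338). Marco, which binds bacteria, had -1.69 in OO, Timd4, a receptor for the phosphatidylserine of dying cells, had -1.12, and Vsig4, a complement receptor, had -0.69.

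Of the 8 genes of this role, 2 had a positive log2 fold change in CSO against Chow, 1 in OO and 5 in SFO, with medians of -0.31, -1.41 and 0.12, and none passed the test. The low OO values of these scarce genes stood in the same libraries as the larger share of zeros.

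**Figure D4:**
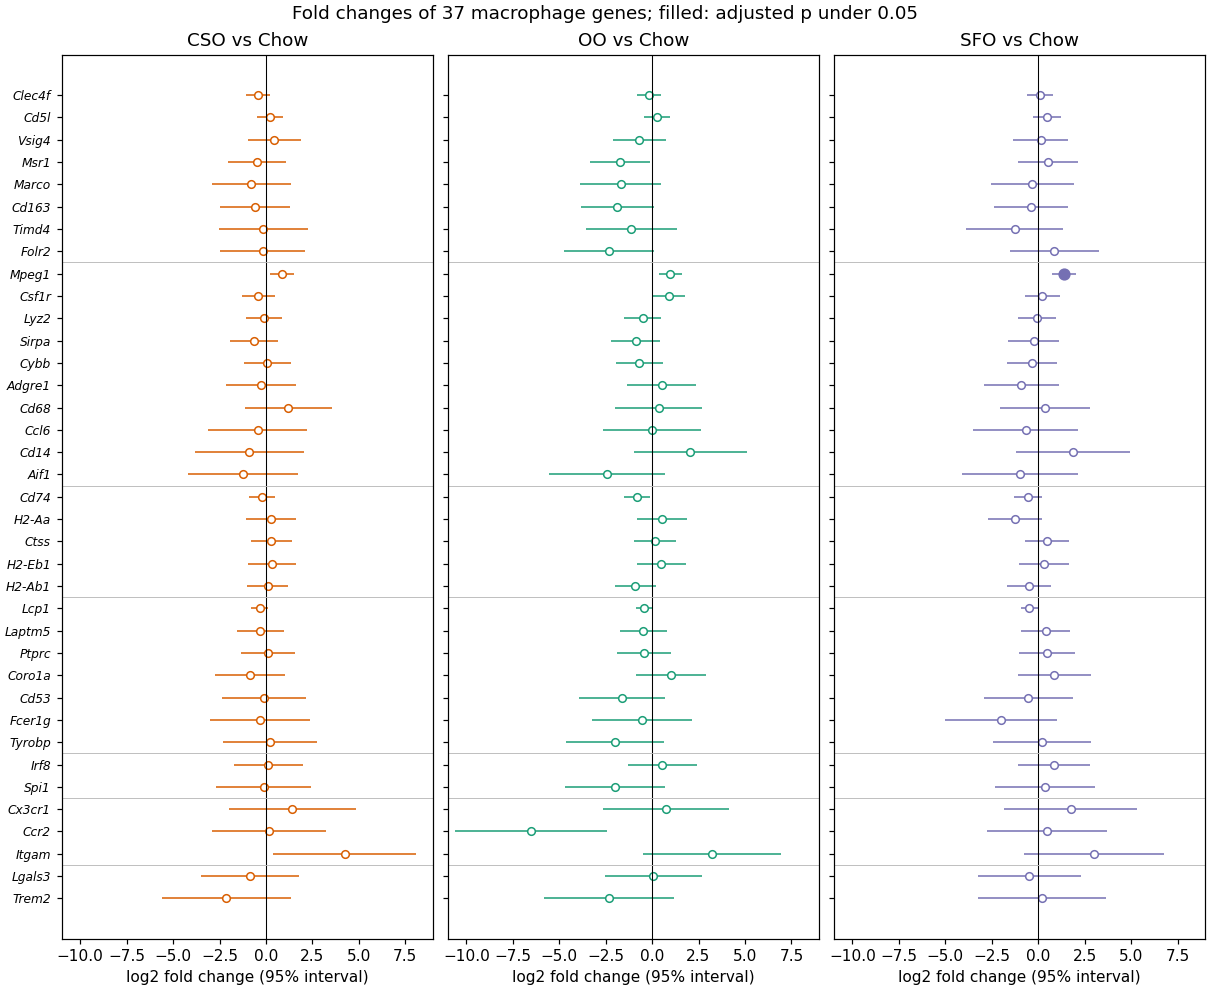
Log2 fold change against Chow with its 95% interval for all 37 genes, ordered by role, in CSO, OO and SFO; filled points have an adjusted p under 0.05. Mpeg1 in SFO, at 1.41, is the filled point, and intervals widen towards the low-count genes at the bottom of each role.

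Among the general macrophage and monocyte genes, Csf1r, the receptor through which CSF1 keeps macrophages alive, was spread widely within OO. Its level was 8.88, 18.5 and 33.9 CPM in CSO and 6.40, 44.2 and 122 CPM in OO. SFO gave 14.9, 32.7, 32.6, 23 and 54.4 CPM, against 19.8, 27.2 and 34.5 CPM in Chow. The OO libraries ran past the range of every other diet at both ends. The log2 fold change of CSO against OO was -1.31 ± 0.45 (95% interval -2.22 to -0.40; unadjusted p = 0.00597, adjusted p = 0.135, edgeR). Without OO 2 it was -1.55 (adjusted p = 0.0407), without OO 5 it was -1.53 (adjusted p = 0.0490) and without OO 3 it was -0.82 (adjusted p = 0.390). Exons of Csf1r overlap those of Hmgxb3 on the opposite strand. No source used here says whether counting used strand, so reads in the shared stretch cannot be assigned to 1 of the 2 genes. Whether the counted reads lie in that stretch was not tested.

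The other genes of this role gave wider intervals. Lyz2, the lysozyme of myeloid cells, averaged 18.4 ± 11.1 CPM in CSO, 13.9 ± 5.51 CPM in OO, 19.0 ± 10.1 CPM in SFO and 19.8 ± 9.93 CPM in Chow, and it has a close paralog, Lyz1, between which the counting may have split reads. Adgre1, which encodes the F4/80 antigen, averaged 5.45 ± 3.18 CPM in CSO, 9.38 ± 12.1 CPM in OO, 3.51 ± 3.10 CPM in SFO and 6.58 ± 7.48 CPM in Chow. Cd68, a lysosomal glycoprotein of macrophages, averaged 5.88 ± 6.68 CPM in CSO, 3.24 ± 4.38 CPM in OO, 3.24 ± 2.99 CPM in SFO and 2.53 ± 3.66 CPM in Chow. In Adgre1 and Cd68 the SD was near or above the mean in most diets. Cd14, the co-receptor for lipopolysaccharide, had 2.06 in OO and 1.87 in SFO against Chow, with 95% intervals of -0.95 to 5.08 and -1.22 to 4.96. Of the 10 genes, 3 had a positive value in CSO against Chow, 5 in OO and 4 in SFO. Their medians were -0.34, 0.17 and -0.15.

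Among the MHC class II genes, Cd74, the invariant chain that guides class II molecules to the endosome, was at 14.0, 46.5 and 82.7 CPM in CSO and at 9.60, 28.7 and 51.6 CPM in OO. Values in SFO were 45.1, 52.3, 37.7, 22.9 and 30.7 CPM, against 36.9, 56.1 and 83.8 CPM in Chow. The Chow libraries lay towards the top, and every oil diet overlapped them. The log2 fold change was -0.23 in CSO, -0.81 ± 0.36 in OO (unadjusted p = 0.0272, adjusted p = 0.228, edgeR) and -0.56 in SFO (adjusted p = 0.838).

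H2-Aa, the class II alpha chain, was at 4.38, 27.2 and 33.0 CPM in CSO and at 0.138, 11.9 and 88.1 CPM in OO. The 5 SFO libraries had 8.92, 8.49, 11.5, 6.55 and 7.39 CPM, against 8.99, 18.9 and 35.4 CPM in Chow. The SFO libraries were close together at the low end, while OO spanned from 1 count in OO 3 to 678 counts in OO 6. The log2 fold change of SFO against Chow was -1.24 ± 0.71 (adjusted p = 0.770, edgeR).

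H2-Eb1, a class II beta chain, did not share the low SFO values: it averaged 14.7 ± 9.86 CPM in CSO, 16.7 ± 13.6 CPM in OO, 14.6 ± 8.56 CPM in SFO and 11.8 ± 7.72 CPM in Chow. The other beta chain, H2-Ab1, averaged 17.0 ± 7.45 CPM in CSO, 8.51 ± 4.83 CPM in OO, 11.3 ± 8.93 CPM in SFO and 16.0 ± 7.24 CPM in Chow. Ctss, the protease that trims the invariant chain, had 0.29 in CSO, 0.14 in OO and 0.47 in SFO against Chow. Of the 5 genes 0 were called, and the median log2 fold change was 0.26 in CSO, 0.14 in OO and -0.49 in SFO.

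Among the adaptors and pan-leukocyte genes, Lcp1, the actin-bundling L-plastin, had the narrowest spread. Its level was 84.7, 97.4 and 129 CPM in CSO and 57.7, 95.1 and 148 CPM in OO. SFO libraries read 65.7, 59.9, 122, 80.8 and 134 CPM, against 99.6, 131 and 154 CPM in Chow. Means were 101 ± 16.3 CPM in CSO, 95.9 ± 29.6 CPM in OO, 92.6 ± 33.7 CPM in SFO and 129 ± 18.3 CPM in Chow, and the ranges overlapped. The log2 fold change was -0.35 ± 0.22 in CSO (adjusted p = 1.0), -0.42 ± 0.22 in OO (adjusted p = 0.337) and -0.47 ± 0.23 in SFO (unadjusted p = 0.0445, adjusted p = 0.618), by edgeR.

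Laptm5, a lysosomal membrane protein of leukocytes, was at 3.03, 8.41 and 29.3 CPM in CSO and at 2.35, 8.62 and 26.9 CPM in OO. Levels in SFO were 1.76, 28.0, 24.9, 30.5 and 8.34 CPM, against 4.01, 11.4 and 28.9 CPM in Chow. Low and high libraries occurred in every diet. Ptprc, the leukocyte antigen CD45, averaged 7.54 CPM in CSO, 5.21 CPM in OO, 9.81 CPM in SFO and 7.01 CPM in Chow. Tyrobp, the adaptor DAP12 that carries the signal of TREM2, averaged 2.07 CPM in CSO, 0.436 CPM in OO, 2.11 CPM in SFO and 1.81 CPM in Chow, with -2.01 in OO against Chow (adjusted p = 0.486). Of the 7 genes, 2 were positive in CSO against Chow, 1 in OO and 4 in SFO. Their medians were -0.32, -0.47 and 0.22. Coro1a overlaps Bola2 on the opposite strand, with the same limit as Csf1r.

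The myeloid transcription factors were at low counts. Irf8, which directs monocyte and dendritic cell fate, was at 1.33, 4.22 and 14.1 CPM in CSO and at 0, 4.84 and 19.5 CPM in OO. SFO gave 3.33, 20.6, 6.92, 4.44 and 12.1 CPM, against 0.256, 4.06 and 10.4 CPM in Chow. The OO libraries were either near 0 or among the higher ones. Spi1, which encodes PU.1, was at 0.143, 1.61 and 8.0 CPM in CSO and at 0, 0.660 and 2.01 CPM in OO. Values in SFO were 0, 8.61, 2.73, 7.50 and 0.190 CPM, against 0, 1.51 and 9.09 CPM in Chow. Its log2 fold change in OO against Chow was -1.98 ± 1.34 (adjusted p = 0.503, edgeR).

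The receptors of recruited monocytes were close to the limit of detection. Ccr2, which draws monocytes out of the marrow, had 85 counts over the 6 CSO libraries, 0 over the 6 OO libraries, 77 over the 5 SFO libraries and 57 over the 6 Chow libraries, of which 3 were at 0. By library it was at 0, 0.737 and 3.37 CPM in CSO, at 0.392, 0, 1.18, 6.02 and 0.569 CPM in SFO, and at 0, 0.703 and 3.84 CPM in Chow. Zero libraries occurred in every diet. Against a floor of 3 counts over the OO group, Ccr2 was at least 15.5-fold lower in OO than in Chow (adjusted p = 0.0667), at least 21.8-fold higher in CSO than in OO (adjusted p = 0.0879) and at least 29.9-fold higher in SFO than in OO (adjusted p = 0.0806), by edgeR, and the floor covers counting error only. None of these passed the threshold. SFO 5 held 57 of the 77 SFO counts, and without it the bound against OO was 9.88-fold (fitted adjusted p = 0.194, edgeR). Without Chow 2 the bound of OO against Chow was 8.40-fold.

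Itgam, the integrin CD11b, had 65 counts in CSO, 31 in OO, 21 in SFO and 3 in Chow. The ratio of its scaled level to Chow was 20.4 in CSO (95% counting interval 6.67 to 101; adjusted p = 0.851, edgeR), 12.6 in OO (3.94 to 64.6; adjusted p = 0.399) and 9.97 in SFO (2.98 to 52.2; adjusted p = 0.805). These intervals cover counting error on pooled counts only, not the spread between libraries, and Itgam was at 0 in 15 of the 23 libraries. All the Itgam counts in SFO came from SFO 5 and all in Chow from Chow 5, and without OO 1 the OO ratio was 6.05. Its exons overlap those of Gm49368 on the same strand. Cx3cr1, the fractalkine receptor, was at 0, 0.699 and 4.62 CPM in CSO and at 0, 0 and 5.33 CPM in OO. The 5 SFO libraries had 0, 0, 0, 0.422 and 8.91 CPM, against 0, 0 and 2.47 CPM in Chow. In OO, SFO and Chow 1 library stood apart at the top, and in CSO 5 of 6 libraries had counts.

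The genes of lipid-associated macrophages were also at low levels, with a mean over all libraries of 2.59 CPM for Lgals3 and 0.903 CPM for Trem2. Lgals3, galectin-3, was at 0.0714, 0.797 and 5.26 CPM in CSO and at 0, 0.702 and 15.9 CPM in OO. SFO libraries read 3.24, 0, 3.01, 4.44 and 0.379 CPM, against 0.512, 1.36 and 11.6 CPM in Chow. Trem2, a lipid-sensing receptor, was at 0, 0.0976 and 1.16 CPM in CSO and at 0, 0 and 1.45 CPM in OO. Levels in SFO were 0.294, 0, 0.182, 7.92 and 0 CPM, against 0, 0.0640 and 6.23 CPM in Chow. Every diet had libraries at or near 0, and neither gene was called against Chow.

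**Figure D5:**
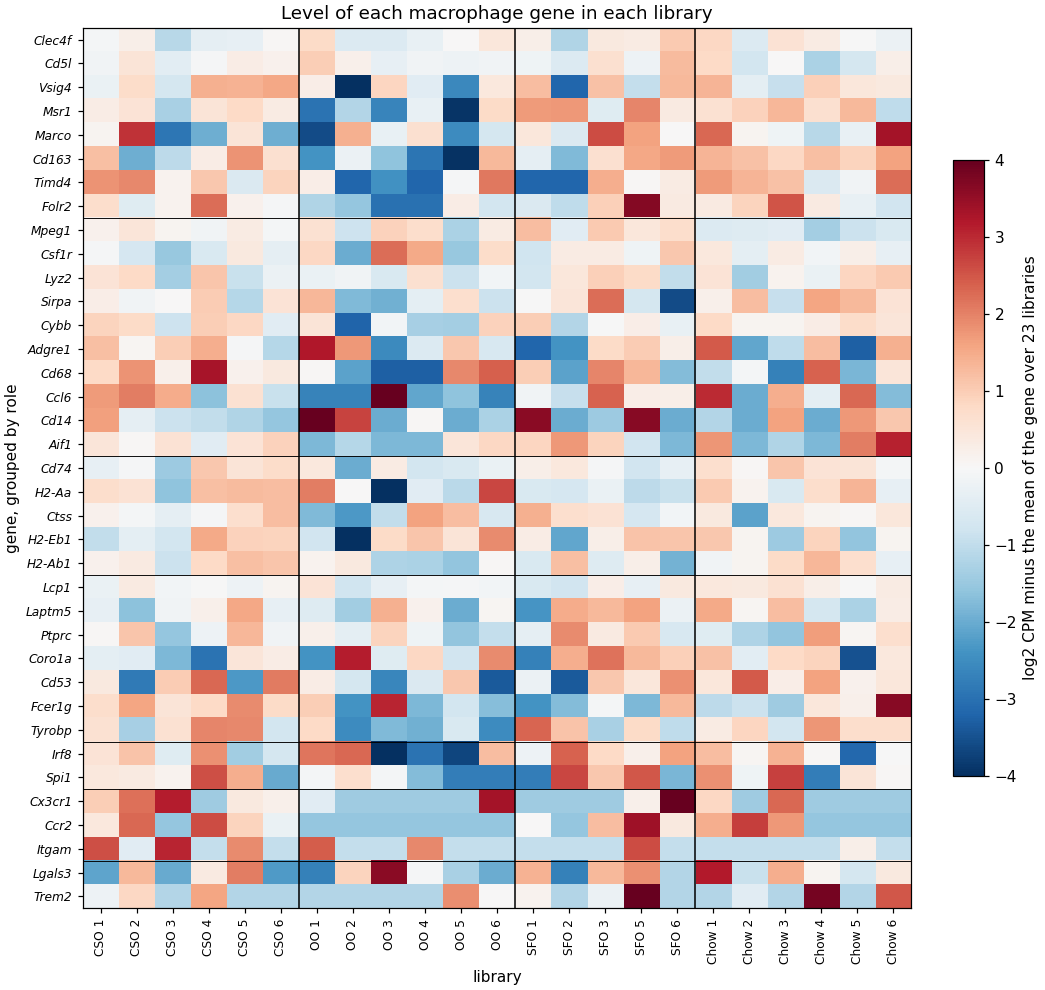
Log2 CPM minus the gene's mean over the 23 libraries for each gene (rows, grouped by role) in each library (columns, oil diets left of Chow). Strong colours fall in scattered cells rather than in whole diets; Ccr2 is evenly low across the 6 OO libraries, and Mpeg1 is below its mean in the 6 Chow libraries.

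Between the oils, 0 of the 37 genes were called by edgeR in CSO against OO, where 1.09% of all genes were, 0 in CSO against SFO, where 0.493% were, and 0 in SFO against OO, where 1.06% were. With CSO set against OO and SFO averaged, 0 were called, where 0.727% of all genes were. Unadjusted p was under 0.05 for 2, 1, 4 and 3 genes in those 4 comparisons, and for 14.7%, 7.69%, 15.3% and 10.1% of all genes. DESeq2's Wald test called 0 in the comparisons with CSO and 3 in SFO against OO, where it called 3.68% of all genes, and voom called 0 in all 4. The 3 genes were Folr2 at 3.25 (adjusted p = 0.0486), Msr1 at 2.30 (adjusted p = 0.0444) and Ccr2 at 6.26 (adjusted p = 0.0476), where edgeR gave Folr2 3.20 (adjusted p = 0.200) and Msr1 2.26 (adjusted p = 0.170). Without SFO 5, the library with 20.5 CPM of Folr2, edgeR gave Folr2 1.44 (adjusted p = 0.672). H2-Aa had -1.77 in SFO against OO (adjusted p = 0.234, edgeR) and 1.5 in CSO against SFO (adjusted p = 0.635). The list's median was 0.40 in CSO against OO, -0.25 in CSO against SFO and 0.36 in SFO against OO, where all genes had -0.08, -0.03 and -0.04. Without SFO 5 that of CSO against SFO was 0.08.

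Lists of genes around the macrophage were read in the same fit. Against Chow, 5.32% of all genes in CSO, 16.1% in OO and 7.74% in SFO had an unadjusted p under 0.05 by edgeR. Of all genes, 0.409%, 2.64% and 0.835% were called. Of 8 genes of complement C1q and Fc gamma receptors, made in liver largely by macrophages and endothelium, 0 were called by edgeR in any comparison, and against Chow 0 in CSO, 3 in OO and 0 in SFO had an unadjusted p under 0.05. C1qa averaged 14.4 ± 6.99 CPM in CSO, 36.4 ± 37 CPM in OO, 22.9 ± 13.2 CPM in SFO and 15.8 ± 6.01 CPM in Chow. The list was split in OO against Chow, where 4 of the 8 had a positive log2 fold change (median 0.04). Fcgrt, for one, averaged 146 ± 39.1 CPM in OO and 164 ± 39.9 CPM in Chow. Of 13 transcription factors of Kupffer cells, 2 in CSO, 6 in OO and 1 in SFO had an unadjusted p under 0.05 against Chow, in either direction. In OO 6 of the 13 had a positive log2 fold change. Smad4, the common mediator of TGF-beta signals, was lower in OO than in Chow, at 34.6 ± 11.6 CPM against 70.1 ± 17.9 CPM (log2 fold change -1.02 ± 0.29, adjusted p = 0.0398, edgeR). Without the libraries that carried muscle transcripts it was -0.79 (adjusted p = 0.457). Zeb2, a repressor that maintains macrophage identity, was higher in SFO than in OO, at 26.1 ± 22.4 CPM against 4.54 ± 2.32 CPM (2.52 ± 0.62, adjusted p = 0.0324, and 0.0691 without those libraries). In SFO against OO 7 of the 13 had a positive log2 fold change, with a median of 0.03. Smad4 in Chow stood above the Kupffer cell marker Clec4f, which averaged 49.7 CPM there. Which cells of whole liver gave the transcripts of this list and of those below was not tested. Of 13 further genes of class II machinery, 12 cytokines and chemokines (24 listed) and 10 growth factors and niche signals, 0 were called against Chow in any diet, with 1, 1 and 0 of them at an unadjusted p under 0.05 in SFO and 0 in CSO and OO.

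Of 19 lipid-associated and phagolysosomal genes, 13 had a positive log2 fold change in OO against Chow, with a median of 0.17. Lpl, lipoprotein lipase, went the other way and was lower in OO, at 5.37 ± 4.35 CPM against 45.8 ± 34.6 CPM (-3.09 ± 0.70, adjusted p = 0.0157). Without the libraries that carried muscle transcripts it had -2.13 (adjusted p = 0.244). Fabp4, an adipocyte and macrophage fatty acid carrier, is not of this list but of the adipocyte markers. It was lower in OO than in Chow (-3.74 ± 0.99, adjusted p = 0.0312, and 0.416 without those libraries). So were 10 of 11 skeletal muscle genes, whose summed level was 0.534 to 15.9 CPM in OO and 8.59 to 2725 CPM in Chow. Of 11 genes of iron and haem recycling, 3 had a positive log2 fold change in SFO against Chow and 3 in OO, with medians of -0.41 and -0.21. Hp of this list, haptoglobin, is a hepatocyte product whose complexes CD163 takes up. It was higher in SFO than in Chow, at 5382 ± 2029 CPM against 2117 ± 147 CPM (1.35 ± 0.19, adjusted p = 0.000135, and 1.40 with adjusted p = 0.0130 without those libraries). It was also higher in OO (0.65 ± 0.18, adjusted p = 0.0496, and 0.307 without those libraries), while Cd163 itself was not called in either diet. From the same list, Hpx was higher in SFO than in Chow (0.94 ± 0.22, adjusted p = 0.0432, and 0.660 without those libraries). Ftl1 was lower in OO than in Chow (-0.62 ± 0.17, adjusted p = 0.0397, and 0.282 without those libraries). Of 20 interferon-inducible genes 5 were higher and 1 lower in OO against Chow, where 2.64% of all genes were called. Among them was Irgm1, a GTPase of macrophage defence, at 109 ± 32.5 CPM against 48.8 ± 8.06 CPM (1.16 ± 0.25, adjusted p = 0.00569, and 1.18 with adjusted p = 0.127 without those libraries). Without those libraries the other 5 calls were lost too, with adjusted p between 0.0518 and 0.278. Over all genes the calls in OO against Chow fell from 316 to 26 in that fit. None of the 20 was called in CSO or SFO, where 1 and 3 had an unadjusted p under 0.05, as had 5.32% and 7.74% of all genes. Of 20 genes of Toll-like receptor and NF-kappaB signalling 0 were called against Chow, with 0, 2 and 4 at an unadjusted p under 0.05 in CSO, OO and SFO. Of all genes, 5.32%, 16.1% and 7.74% were at that p. Between oils, Lbp, the hepatocyte protein that hands lipopolysaccharide to CD14, was lower in CSO than in SFO, at 67.0 ± 14.5 CPM against 169 ± 66.4 CPM (-1.34 ± 0.28, adjusted p = 0.00757, and 0.00758 without those libraries).

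Markers of other liver cells were set beside these results. Over all genes, 5.32% in CSO, 16.1% in OO and 7.74% in SFO had an unadjusted p under 0.05 against Chow by edgeR. Of 14 markers of sinusoidal endothelium 0 were called against Chow (1, 5 and 2 at an unadjusted p under 0.05 in CSO, OO and SFO), and their summed level was 244 to 512 CPM in CSO, 234 to 611 CPM in OO, 240 to 545 CPM in SFO and 436 to 518 CPM in Chow. Of 14 markers of stellate cells and fibroblasts 0 were called as well (0, 1 and 1 at an unadjusted p under 0.05). Of 10 neutrophil markers 2 were tested, and Lcn2, which hepatocytes also make, was higher in SFO than in Chow, at 29.1 ± 25.2 CPM against 0.912 ± 1.88 CPM (4.97 ± 1.24, adjusted p = 0.0460, and 0.00948 without the libraries that carried muscle transcripts). Csf3r, the other one, averaged 0.404 ± 0.420 CPM in SFO and 1.66 ± 1.44 CPM in Chow. The summed level of both was 1.90 to 68.5 CPM in SFO and 0.305 to 7.31 CPM in Chow. By the means above, Lcn2 made up most of the SFO sum, and Csf3r had a lower mean in SFO than in Chow. S100a9, a defining neutrophil gene, averaged 1.11 ± 1.33 CPM in SFO and 0.222 ± 0.346 CPM in Chow and was at 0 in 11 of the 23 libraries. The part of neutrophils in the Mpeg1 value was not tested. Of 14 T and NK cell, 10 B and plasma cell and 10 dendritic cell markers, 2, 1 and 2 were expressed highly enough to test. Other lists also held calls against Chow by edgeR. Of 3 monocyte genes tested, Fn1 was the only 1 with a positive log2 fold change in OO or in SFO (list medians -0.06 and -0.42). It averaged 2829 CPM in OO, 2367 CPM in SFO and 1502 CPM in Chow, and which cells gave it was not tested. Fn1 was higher in OO (0.91 ± 0.12, adjusted p = 1.09e-06) and SFO (0.66 ± 0.12, adjusted p = 0.000913). Without the libraries that carried muscle transcripts these were 0.00313 and 0.122. H2-K1 in OO and Pdia3 in SFO, of MHC class I, and the hepatocyte gene Fgb in both were higher too. Of these, Fgb in SFO alone was called without those libraries (adjusted p = 0.00452).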

How the data were processed

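For 23 mouse liver libraries the authors deposited raw counts per gene, with 3 tables that set Chow beside an oil diet. The submitters' processing notes name Trimmomatic, STAR 2.7.1a, HTSeq 0.9.1, the build mm39, DESeq2 and DESeq. In the deposited tables, per the file headers, the log2 fold change has a standard error, a Wald score, a mean signal of scaled counts, and raw and adjusted p-values. Their fold changes, which the counts show to be Chow over oil, were turned to oil over Chow. Whether counting used strand is not given in those notes.

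The counts were fitted with edgeR 4.0.16 in R 4.3.3. The filter filterByExpr kept 11971 of 13686 genes, with 99.9% of the counts, and libraries were scaled by TMM. Diet was the only term of the fit, and 7 comparisons were tested with the robust quasi-likelihood F test. Log2 CPM used a prior count of 2. DESeq2 1.42.0, voom in limma 3.58.1, other scalings and filters, fits of single diet pairs, a replicate block and leaving out each library were alternatives. The fit was also run on simulated data, whose outcome is not reported here. Figures were drawn with matplotlib 3.10.9.

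The genes and lists were chosen with earlier results of these data known. All library levels are given for called genes and the 2 of highest mean CPM in each role. Of the other lists, up to 4 called genes were eligible to be named, or up to 2 of the highest mean CPM where none was called. Coordinates and promoters are from RefSeq's GRCm38.p6, another build than that of the counts.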

Additional observations from a re-analysis of the deposited data

Results flagged for a closer look

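Of 148 sets of libraries of 1 gene in 1 diet, 31 had a library that stood apart from the others of its diet by Dixon's criterion on CPM. That criterion gives about 1 in 20 only for normally distributed values, which low CPM with many zeros are not. No excess over chance is therefore read from the 31. In 30 of them the library that stood apart was a high one, and on log2 CPM the number of sets was 15.

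In CSO, Marco was at 17.8 CPM in CSO 2, Folr2 at 7.47 and Cd68 at 19 CPM in CSO 4, Cd14 at 2.34 CPM in CSO 1 and Laptm5 at 29.3 CPM in CSO 5. In OO 1, Cd5l was at 66 CPM where the other OO libraries held 27 to 38.6 CPM, and in the same library Adgre1 was at 32.5, Cd14 at 21.3 and Tyrobp at 1.81 CPM. OO 3 held Ccl6 at 20.2 CPM, where the other OO libraries held at most 0.223 CPM, with Fcer1g at 8.72, Laptm5 at 26.9 and Lgals3 at 15.9 CPM. OO 6 held Timd4 at 7.8, Cd163 at 7.54 and Cx3cr1 at 5.33 CPM, and OO 5 held Trem2 at 1.45 CPM.

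SFO 5 held Folr2 at 20.5 CPM, where the other SFO libraries held at most 2.91 CPM, with Ccr2 at 6.02, Itgam at 2.22 and Trem2 at 7.92 CPM. SFO 3 held Sirpa at 42.6 and Ccl6 at 6.47 CPM, and SFO 6 held Cx3cr1 at 8.91 CPM. In Chow, Folr2 was at 9.09 and Cx3cr1 at 2.47 CPM in Chow 3, Cd68 at 9.77 CPM in Chow 4, Itgam at 0.256 CPM in Chow 5, Fcer1g at 13.3 CPM in Chow 6 and Lgals3 at 11.6 CPM in Chow 1. The low library was Chow 2 for Ctss, at 2.81 CPM where the other Chow libraries held 13.6 to 18.1 CPM.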

How the results depend on the processing

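Over 32 alternative settings, no gene of the list was called in CSO against SFO, or in CSO against OO and SFO averaged (0 in each by edgeR, DESeq2 and voom). Fitting only CSO and Chow called 1 (Mpeg1, 0.86, adjusted p = 0.0347) of 31 genes tested. DESeq2 called 2 in OO against Chow (Mpeg1 0.97, adjusted p = 0.0428, and Ccr2 -5.77, adjusted p = 0.0482) and 3 in SFO against OO. Leaving out 1 library gave 0 to 1 in OO against Chow (1 without OO 2 or OO 5, each time Mpeg1, at 1.12 and 1.15), 0 to 1 in SFO against Chow (0 without Chow 4, SFO 1 or SFO 3) and 0 to 1 in CSO against OO (1 without OO 2 or OO 5, Csf1r). A fit without the 4 libraries that held Acta1 above 100 CPM, chosen after seeing the data, gave 0 in SFO against Chow, and over all genes 14 calls in CSO, 26 in OO and 34 in SFO against Chow, where all libraries gave 49, 316 and 100. Voom moved the list's median to -0.90 in OO against Chow, 0.81 in SFO against OO and 0.61 in CSO against OO and SFO averaged, and the cause was not tested. Library totals without TMM shifted all genes by a median of -0.18 and the list by -0.19 in OO against Chow, with 1 of the 37 genes changing sign. Replicate numbers did not pair the libraries (33 same-number pairs, correlations -0.101 to 0.0346). With the replicate block the count of genes of the list called stayed at 1 in SFO against Chow (Mpeg1, 1.33, adjusted p = 0.0297) and at 0 elsewhere, and over all genes 208 in place of 316 were called in OO against Chow and 77 in place of 127 in SFO against OO. The list's median changed sign in CSO against Chow (0.08 with voom), in SFO against Chow (-0.08 with the block, -0.21 without SFO 5) and in CSO against SFO (0.08 without SFO 5). What depth limits was not tested, and 14 of 37 genes reach a mean of 10 CPM.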
